A study of Mus musculus with 14 samples.

Results

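Neonatal cerebellum was compared with whole brain of embryos at 15.5 days post coitum (dpc) in mice, on 8 of the 14 arrays of the study. Every array of both tissues was used, which gave 4 of cerebellum and 4 of 15.5 dpc brain. All mice were T9H/+ heterozygotes, so the translocation was shared by both sides. On each side 2 arrays came from MatDp7 mice (matdup of proximal Chr 7 together with patdup of proximal Chr 15) and 2 from PatDp7 mice (the reverse), and both duplications were averaged. The labels call the replicates biological but name no animals, pools, sexes or days, and they give no age in days for the neonates. The p-values therefore measure the spread between these samples, which may be partly technical. A difference was called when its limma Benjamini-Hochberg adjusted p was under 0.05 and its sign was the same with the cerebellum replicate 1 arrays alone and with the replicate 2 arrays alone. Stage and region change together in this comparison, so embryo against newborn and whole brain against cerebellum cannot be told apart from it. The 4 arrays of neonatal cortex, described in the labels as forebrain, give a second tissue of the later stage.

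At 15.5 dpc the mouse brain still holds dividing ventricular progenitors beside newly made neurons of the forebrain, midbrain and hindbrain. The cerebellum at birth is a hindbrain derivative with a dividing external granule layer, young Purkinje cells that release GABA, deep nuclear neurons and the first glia. Its neurons and those of the forebrain carry different transcription factors, among them engrailed and Iroquois genes in the hindbrain and Dlx genes in the ventral forebrain.

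Intensity was deposited on a linear scale. Medians of the 14 arrays lay between 212.9 and 281.2. The brightest probe set of each neonatal replicate 1 array read 43099 to 61172, and that of each remaining array read 17662 to 25858, so values from the cerebellum replicates are also given apart. Xist, the X-inactivation transcript, was at 198.4 to 436.9 on the replicate 1 arrays of the replicated tissues and at 2882 to 5760 on the remaining arrays, a split balanced between cerebellum and 15.5 dpc brain. Differences below are of log2(intensity + 52.0273), with standard errors from limma. Where 4 intensities are given they run MatDp7 replicate 1, MatDp7 replicate 2, PatDp7 replicate 1, PatDp7 replicate 2.

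The labelled tissue was checked against marker genes. En2, the engrailed gene that patterns midbrain and cerebellum, had intensities of 231, 489, 318 and 435 in cerebellum and of 44.8, 31.7, 89.1 and 18 in cortex, a log2 difference of 2.11 ± 0.27 (limma adjusted p = 0.01231). Meis1, a homeobox gene of granule cell precursors, was at 553, 322, 517 and 296 in cerebellum and at 22.3, 97.7, 16.2 and 12.1 in cortex, a difference of 2.46 ± 0.27 (adjusted p = 0.004916). All 4 cerebellum arrays lay above all 4 cortex arrays for both genes. Barhl1 was also above cortex, at 1.75 (limma adjusted p = 0.02891). Lhx1 (1.66), Lhx5 (0.76), Pcp4 (0.75) and Rora (0.61) did not pass against cortex. For Rora the adjusted p was 0.865, and it was 0.03921 in a limma fit with a term for the replicate number of neonatal arrays. Zic1 was not above cortex, at -0.10 (adjusted p = 0.9976), and neither was Calb1, at -0.16 (adjusted p = 0.9326). Against 15.5 dpc brain, En2 differed by 0.49 (adjusted p = 0.2929) and Meis1 by 0.65 (adjusted p = 0.1744), and neither passed the test. Tbr1, a factor of cortical projection neurons that was below the intensity filter, was listed at 7.54, 19.1, 6.75 and 8.56 in cerebellum and at 243, 210, 332 and 222 in 15.5 dpc brain. Of the tested forebrain markers Neurod6, Dlx1, Dlx2 and Dlx5 were called lower than 15.5 dpc brain. Neurod2 (-0.78, limma adjusted p = 0.2546) and Six3 (0.83, adjusted p = 0.4186) were not called, and Six3 did not differ from cortex (-0.27, adjusted p = 0.9809). Summed intensity over 9 tested cerebellar markers was 10383 to 12971 in cerebellum, 7585 to 8195 in 15.5 dpc brain and 6817 to 11969 in cortex, which overlaps cerebellum. Over 6 tested forebrain markers it was 955 to 3028 in cerebellum, 3288 to 4902 in 15.5 dpc brain and 5682 to 8494 in cortex.

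Of 13576 probe sets tested, 1002 were called (7.38%). Cerebellum was higher for 374 of them (2.75%) and lower for 628 (4.63%). With 1 probe set for each of 8156 genes, 222 genes were higher (2.72%) and 384 were lower (4.71%). The median log2 difference was 0.96 among probe sets called higher and -0.91 among those called lower, against -0.03 over all tested. Differences over 2 on the log2 scale were found for 24 called probe sets in the higher direction and 21 in the lower.

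These counts moved with single arrays. Without cerebellum MatDp7 replicate 1, 252 probe sets were called. The count was 539 without cerebellum MatDp7 replicate 2 and 307 without cerebellum PatDp7 replicate 1, and it was 894 without cerebellum PatDp7 replicate 2. Leaving out 15.5 dpc MatDp7 replicate 1 gave 175 and leaving out MatDp7 replicate 2 gave 440. Without 15.5 dpc PatDp7 replicate 1 there were 218, and without PatDp7 replicate 2 there were 123. A core of 113 probe sets was called in the full set and in each of the 8 fits without 1 array, 41 higher and 72 lower in cerebellum. Of the 84 called genes whose values were followed singly, 34 belong to that core, and how many of the 8 fits kept a call is given beside these genes where they are described. Gene lists held 697 entries, of which 481 were tested, 114 lay below the intensity filter and 102 had no probe set of a single gene. Counts of list members are of the tested ones, and the filter on mean intensity can remove genes that are low in most tissues. Each count is to be read beside the shares of all genes, 4.71% lower and 2.72% higher.

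**Figure D1:**
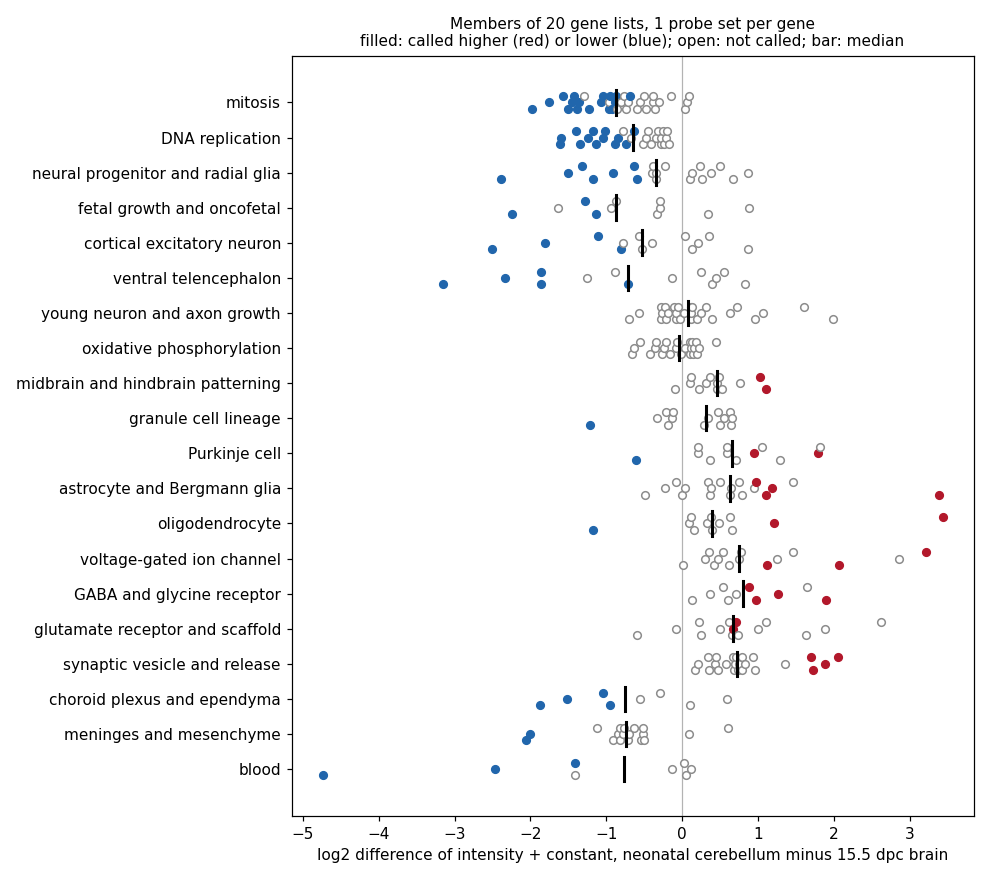
Log2 difference (neonatal cerebellum minus 15.5 dpc brain) on the horizontal axis for each tested member of 20 gene lists on the vertical axis, 1 probe set per gene; filled points were called higher (red) or lower (blue), open points were not called, and black bars are list medians. The called members of the mitosis and DNA replication lists all lie below 0, with medians of -0.87 and -0.65, and those of the synaptic vesicle list all lie above 0, with a median of 0.72.

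Genes of cell division were lower in neonatal cerebellum. In the DNA replication list 13 of 28 tested genes were lower and 0 higher, beside 4.71% of all genes lower. Its median was -0.65, with -0.04 over all tested genes, and all 28 differences were negative. In the mitosis list 17 of 36 were lower and 0 higher, with a median of -0.87. In bulk tissue, fewer dividing cells and less RNA per cell cannot be told apart.

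Promoters are shown for 3 called mitosis genes and 2 called replication genes because members of both lists were called lower, and the regulatory letters known for each class were searched in them. Genes expressed late in the cell cycle often carry a cell cycle homology region, searched here as TTTGAA, and CCAAT boxes. Genes of the replication phase often carry E2F sites, searched here as TTTGGCGC, TTTCGCGC or TTTCCCGC. Each line gives the 120 bases before a gene's first listed start in RefSeq (GRCm38.p6), read 5′ to 3′ on the gene's strand. Capitals mark matches on either strand, so that ATTGG is the reverse complement of CCAAT and TTCAAA is that of TTTGAA. Positions are chr4:118437344-118437463 (minus strand) for Cdc20, chr11:99024190-99024309 (minus) for Top2a, chr2:164769809-164769928 (plus) for Ube2c, chr5:138171884-138172003 (minus) for Mcm7 and chr1:128359706-128359825 (minus) for Mcm6.
Cdc20: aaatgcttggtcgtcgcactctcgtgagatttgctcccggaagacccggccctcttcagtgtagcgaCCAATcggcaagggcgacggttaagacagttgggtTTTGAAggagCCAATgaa
Top2a: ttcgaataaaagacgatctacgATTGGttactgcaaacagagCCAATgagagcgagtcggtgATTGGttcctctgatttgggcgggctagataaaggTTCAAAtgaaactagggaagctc
Ube2c: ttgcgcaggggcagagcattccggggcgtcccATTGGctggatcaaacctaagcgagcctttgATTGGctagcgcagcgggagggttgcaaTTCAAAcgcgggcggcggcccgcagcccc
Mcm7: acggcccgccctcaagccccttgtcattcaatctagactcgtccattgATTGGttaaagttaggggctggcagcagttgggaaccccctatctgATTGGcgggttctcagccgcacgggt
Mcm6: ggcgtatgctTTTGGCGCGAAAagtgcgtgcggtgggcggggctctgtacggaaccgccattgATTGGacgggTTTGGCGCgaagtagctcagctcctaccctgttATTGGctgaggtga

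The Mcm7 line holds CCAAT and none of the E2F letters searched, so of the replication genes shown only Mcm6 has them in its printed stretch. The window from 250 bases before to 50 after the same Mcm7 start does hold E2F letters outside the printed stretch. There TTTCCCGC lies further upstream and TTTCGCGC lies after the start. In the Mcm6 line the first capital run holds overlapping matches of TTTGGCGC and of TTTCGCGC on the other strand. Over the full windows of 250 bases before to 50 after a start, RefSeq listed promoters for 14 of the 17 called mitosis genes, 15 promoters in all. TTTGAA was present in 14 of them (93.3%) and CCAAT in 14 (93.3%), with Birc5 the gene that lacked both. Among 17 promoters of mitosis genes that were tested and not called, TTTGAA was in 9 (52.9%) and CCAAT in 10 (58.8%). Over all 32851 mouse promoters of the same length the shares were 17.9% and 37.4%. For the called replication genes 10 of 13 had promoters, 11 in all, of which 1 (9.09%) held TTTGAA, 8 (72.7%) held CCAAT and 3 (27.3%) held an E2F motif. The E2F motifs were in 5 of 18 promoters (27.8%) of replication genes not called and in 1.84% of all promoters. The matches are a description of these windows, were not tested, and show no binding.

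The replication genes called lower covered the helicase, its regulators and nucleotide supply. Mcm7, a subunit of the replicative helicase, had intensities of 957, 969, 997 and 991 in cerebellum and of 2911, 2564, 2376 and 2824 in 15.5 dpc brain. The cerebellum arrays were nearly equal and all lay far below the embryo arrays. The log2 difference was -1.40 ± 0.13 (limma adjusted p = 0.0024), and all 8 fits without 1 array kept it, while a second Mcm7 probe set was at -0.71 and was not called (adjusted p = 0.08954). Mcm2, Mcm3, Mcm4 and Mcm6 of the same complex were also called lower, with differences between -1.59 for Mcm2 and -0.74 for Mcm6, while Mcm5 missed the threshold (-0.77, adjusted p = 0.05323).

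Rrm2, the small subunit of ribonucleotide reductase, was at 418, 363, 304 and 325 in cerebellum and at 1181, 804, 956 and 965 in 15.5 dpc brain. The lowest embryo array lay well above the highest cerebellum array. It differed by -1.34 ± 0.16 (limma adjusted p = 0.004888, kept in 8 fits). Gmnn, which encodes geminin, the inhibitor of origin licensing, was at 109, 103, 99.1 and 102 against 318, 232, 307 and 302, a difference of -1.13 ± 0.15 (adjusted p = 0.006711, kept in 8 fits). Gins1, of the complex that activates the helicase, was at 106, 139, 112 and 99.1 against 335, 283, 322 and 350, a difference of -1.18 ± 0.16 (adjusted p = 0.006925, kept in 8 fits). The groups did not overlap for either gene. Tk1, thymidine kinase, was lower, at -1.61, Pcna, the sliding clamp, at -0.84 and Rrm1 at -0.63. The factors of the clamp loader were divided, with Rfc4 (-1.02) and Rfc5 (-0.89) called and Rfc1, Rfc2 and Rfc3 not called, at -0.17, -0.34 and -0.41. The origin licensing factor Cdt1 (-0.21) and the ligase Lig1 (-0.32) did not pass.

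Mitotic regulators and structural genes followed. Cdc20, which activates the anaphase-promoting complex, was at 330, 372, 284 and 349 in cerebellum and at 946, 781, 957 and 1311 in 15.5 dpc brain. Every embryo array was above every cerebellum array. The difference was -1.43 ± 0.18 (limma adjusted p = 0.005463, kept in 8 fits). Top2a, the topoisomerase of dividing cells, was at 419, 392, 416 and 383 against 1159, 976, 997 and 1376, a difference of -1.36 ± 0.19 (adjusted p = 0.008302, kept in 8 fits). Smc4, a condensin subunit, was at 326, 277, 399 and 274 against 996, 739, 943 and 991 (-1.39 ± 0.19, adjusted p = 0.00695, kept in 8 fits), and a second Smc4 probe set was at -0.24 and was not called. On the first Smc4 probe set no cerebellum array reached an embryo array. Prc1, which bundles the microtubules of the spindle midzone, was at 294, 383, 282 and 317 against 923, 665, 690 and 1041 (-1.23 ± 0.18, adjusted p = 0.008416, kept in 8 fits).

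Bub1b, a kinase-like protein of the spindle checkpoint, had the largest difference of the mitosis list, -1.98 ± 0.30 (limma adjusted p = 0.009708), with 92.7, 42, 51.5 and 58 in cerebellum and 348, 307, 344 and 602 in 15.5 dpc brain. The embryo range began above the highest cerebellum array, and 6 of the 8 fits kept the call. Ube2c, the ubiquitin-conjugating enzyme of the anaphase-promoting complex, had a mean of 349 ± 85.4 (SD, n = 4) in cerebellum and 1068 ± 137.7 (n = 4) in 15.5 dpc brain, a difference of -1.50 ± 0.23 (adjusted p = 0.01012). Cdk1, the mitotic kinase, differed by -1.75, Cenpa, the centromeric histone, by -1.57 and Birc5, survivin, by -1.45. Mki67, the proliferation antigen, was at -1.29 without passing (adjusted p = 0.09069). The transcription factors Foxm1 and Mybl2, which drive mitotic genes, were at 0.09 and 0.07 and did not pass.

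The counts of both lists were smaller without some arrays. Without 15.5 dpc PatDp7 replicate 2, 6 replication genes and 4 mitosis genes were called, the lowest of the 8 fits. The highest counts among those fits were 11 and 15. List medians were -0.59 for replication and -0.80 for mitosis with the cerebellum replicate 1 arrays, and -0.60 and -0.82 with the replicate 2 arrays. Summed intensity over the replication list was 12070 to 12770 on the cerebellum arrays and 20110 to 23620 on the 15.5 dpc arrays, and over the mitosis list 11560 to 13690 and 21020 to 27390.

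Neonatal cortex was also lower than 15.5 dpc brain in these lists. Its medians were -0.68 for replication and -0.71 for mitosis, although both comparisons share the 15.5 dpc arrays. Tested directly, cerebellum minus cortex had list medians of -0.01 and -0.07, and limma called 0 genes of either list in that test, in which 50 of all 13576 probe sets passed (0.368%). At an unadjusted p under 0.05 there were 1 and 3. That test had no term for the replicate number of neonatal arrays.

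**Figure D2:**
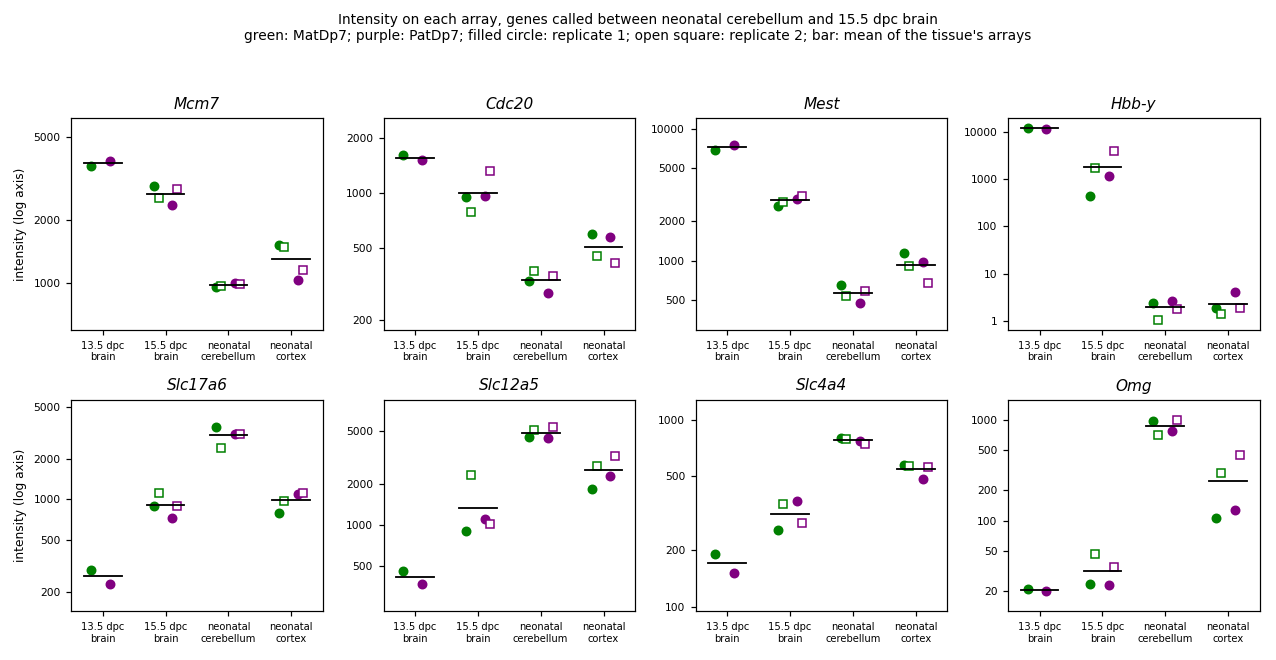
Intensity on a log axis for 8 called genes in the 4 tissues of the study; green marks MatDp7, purple PatDp7, filled circles replicate 1, open squares replicate 2, and bars the mean of a tissue's arrays. Mcm7, Cdc20, Mest and Hbb-y lie lower in neonatal cerebellum than in 15.5 dpc brain on all 4 arrays, and Slc17a6, Slc12a5, Slc4a4 and Omg lie higher on all 4.

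Some chromatin genes were lower. Of 20 tested genes of DNA methylation and chromatin, 5 were lower and 1 higher, where 4.71% and 2.72% of all genes were called lower and higher, with a median of -0.18 and 14 genes not called. Ezh2, the histone methyltransferase of a Polycomb complex, was at 390, 401, 433 and 379 in cerebellum and at 1154, 1059, 1067 and 892 in 15.5 dpc brain. The lowest embryo array stood clear of the cerebellum range. It differed by -1.27 ± 0.16 (limma adjusted p = 0.006005, kept in 8 fits). Hells, a remodeller needed for DNA methylation, was at 77.7, 76.4, 90.6 and 102 against 340, 205, 273 and 282, a difference of -1.23 ± 0.17 (adjusted p = 0.006925, kept in 8 fits). Uhrf1, which recruits the maintenance methyltransferase, was lower, at -1.17 and the deacetylase Hdac1 at -1.10 (kept in 6 fits). The maintenance methyltransferase itself, Dnmt1, was at 0.01 and did not pass, while the de novo enzyme Dnmt3a was higher by 0.96 (adjusted p = 0.0393). Without 15.5 dpc PatDp7 replicate 2 the list had 2 calls.

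Cdca7, a cell cycle gene whose protein acts with Hells, was among the genes with the largest lower values. Its intensities were 12.4, 23.3, 58.5 and 117 in cerebellum, 547, 485, 299 and 515 in 15.5 dpc brain and 224, 154, 198 and 259 in cortex. Cerebellum was below both other tissues on every array, although its own arrays were spread widely. The difference from 15.5 dpc brain was -2.37 ± 0.22 (limma adjusted p = 0.00208, kept in 8 fits) and that from cortex was -1.40 ± 0.22 (adjusted p = 0.03196). The added constant sets part of their size because the cerebellum mean, 52.68, is close to it.

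Among 20 tested genes of neural progenitors and radial glia, 7 were lower and 0 higher, beside 4.71% of all genes lower. The median was -0.34. Neurog2, a proneural factor that commits progenitors to neurons, was at 42.1, 14, 77.5 and 81.8 in cerebellum and at 593, 363, 314 and 763 in 15.5 dpc brain. The embryo arrays were all several times higher. It differed by -2.38 ± 0.30 (limma adjusted p = 0.005467, kept in 8 fits), and the added constant sets part of this size because the cerebellum mean, 53.85, is close to it. Nes, which encodes the progenitor filament nestin, was at 637, 521, 566 and 700 against 1417, 1476, 2122 and 2403, a difference of -1.51 ± 0.28 (adjusted p = 0.01791), with no overlap. Only 2 of the 8 fits kept the Nes call, and a second Nes probe set was at 0.08 and was not called.

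Tead2, a factor of the Hippo pathway, was lower, at -1.31 (kept in 3 of 8 fits), Hes6 at -1.18 (kept in 2), Prom1, a membrane protein of ventricular cells, at -0.91, the filament gene Vim at -0.63 and the antiproliferative gene Btg2 at -0.60. The core progenitor factors Sox2 (-0.34, limma adjusted p = 0.1689) and Sox9 (0.27), the Notch effector Hes1 (-0.38), Notch1 (0.38) and the radial glial gene Fabp7 (0.10) did not pass. The list had 1 call without 15.5 dpc PatDp7 replicate 2.

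In the list of fetal growth genes 3 of 11 were lower and 0 higher, beside 4.71% of all genes lower, with a median of -0.88. Mest, an imprinted gene on chromosome 6 that is transcribed from the paternal copy, was at 648, 542, 477 and 583 in cerebellum and at 2587, 2793, 2951 and 3081 in 15.5 dpc brain. The 2 sets of arrays were tight and far apart. The difference was -2.25 ± 0.17 (limma adjusted p = 0.0008192, kept in 8 fits). At 13.5 dpc the 2 arrays read 6910 and 7514, and cortex read 1135, 913, 975 and 676, so the order of levels was 13.5 dpc, 15.5 dpc, cortex, cerebellum. Cerebellum and cortex did not differ past the threshold (-0.65, adjusted p = 0.2476). With a term for the replicate number of neonatal arrays the limma adjusted p of that difference was 0.02344.

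Grb10, an imprinted adaptor that restrains insulin and IGF receptor signalling, was at 1141, 1703, 1176 and 1774 in cerebellum and at 2984, 2770, 3297 and 3753 in 15.5 dpc brain. It differed by -1.14 ± 0.21 (limma adjusted p = 0.01724, kept in 3 of 8 fits), and other Grb10 probe sets, at -0.66 and -0.20, were not called. Cdkn1c, an imprinted inhibitor of cyclin-dependent kinases, was at 2582, 1472, 1122 and 1195 against 3616, 3236, 3760 and 4379. Groups did not overlap for either gene, with MatDp7 replicate 1 the highest cerebellum array for Cdkn1c. The Cdkn1c difference of -1.28 ± 0.29 (adjusted p = 0.03539) was kept in 0 of the 8 fits. Plagl1 (-0.88), Dlk1 (-1.64) and Igf2 (-0.94), further imprinted growth genes, did not pass. Summed intensity of the list was 8965 to 16020 in cerebellum and 22010 to 27660 in 15.5 dpc brain.

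Transcripts of the earliest red cells marked the embryo. Hbb-y, an embryonic beta-like globin, was at 2.37, 1.04, 2.64 and 1.76 in cerebellum and at 445, 1688, 1192 and 3975 in 15.5 dpc brain. It was near 0 on all 4 cerebellum arrays and varied widely among the embryo arrays. The log2 difference was -4.74 ± 0.43 (limma adjusted p = 0.001926, kept in 8 fits), a size set largely by the added constant because the cerebellum mean lies under it. Hba-x, the embryonic zeta-like globin, was at 45.1, 110, 30.2 and 68.9 against 210, 645, 444 and 1593 (-2.47 ± 0.43, adjusted p = 0.0154, kept in 5 of 8 fits). Alas2, the erythroid enzyme that starts heme synthesis, was lower, at -1.42 ± 0.31 (adjusted p = 0.03155, kept in 1 of 8 fits). Of 8 tested blood genes these 3 were lower and 0 higher, beside 4.71% of all genes lower, with a median of -0.77. Summed intensities were 2962 to 3599 in cerebellum and 4893 to 10570 in 15.5 dpc brain.

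Choroid plexus genes were lower in part. Of 8 tested, 4 were lower and 0 higher, beside 4.71% of all genes lower, with a median of -0.75. Kcne2, a potassium channel subunit of choroid plexus epithelium, was at 148, 104, 85.6 and 140 in cerebellum and at 795, 396, 529 and 627 in 15.5 dpc brain. Every embryo array exceeded every cerebellum array. Its difference was -1.88 ± 0.22 (limma adjusted p = 0.004787, kept in 8 fits). Calml4 (-1.51, kept in 3 fits), the water channel Aqp1 (-1.04, kept in 2) and the folate receptor Folr1 (-0.95, kept in 3) were also called. Ttr, an abundant transcript of that epithelium that encodes transthyretin, had a mean of 12630 ± 1619 (SD, n = 4) against 15530 ± 2072 (n = 4) and did not pass (-0.30, adjusted p = 0.3281). The list's summed intensity was 14020 to 16540 in cerebellum and 16150 to 21870 in 15.5 dpc brain. Without 15.5 dpc PatDp7 replicate 2, 1 of its genes was called.

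Of 18 meningeal and mesenchymal genes 2 were lower and 0 higher, beside 4.71% of all genes lower, with a median of -0.74. Lum, which encodes the matrix proteoglycan lumican, was at 199, 283, 90.8 and 243 in cerebellum, at 786, 1048, 906 and 1141 in 15.5 dpc brain and at 4544 and 4682 at 13.5 dpc. The 3 sets of arrays did not overlap. The difference of cerebellum from 15.5 dpc brain was -2.06 ± 0.24 (limma adjusted p = 0.00411, kept in 8 fits). Cd248, endosialin of pericytes and fibroblasts, was at 65.5, 10.5, 46.5 and 131 against 158, 714, 276 and 598 (-2.01 ± 0.43, adjusted p = 0.02965, kept in 2 fits). The neonatal replicates disagreed over this list, with medians of -1.30 from replicate 1 and -0.31 from replicate 2 against 15.5 dpc brain. Between 1 gene (without 15.5 dpc PatDp7 replicate 2) and 8 genes (without cerebellum PatDp7 replicate 2) were called when an array was left out. Summed intensity was 4506 to 14760 in cerebellum and 14170 to 18740 in 15.5 dpc brain.

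Of 15 endothelial and pericyte genes limma called 0, although 10 had an unadjusted p under 0.05, and the median was -0.48. Cdh5, the cadherin of endothelial junctions, was at 200, 325, 118 and 233 in cerebellum and at 281, 422, 356 and 440 in 15.5 dpc brain, with overlap between the groups (-0.70 ± 0.22, adjusted p = 0.09105). Of 12 microglial genes Tyrobp, a signalling adaptor of myeloid cells, was lower, at -0.80 (limma adjusted p = 0.04388, kept in 1 fit). None were higher and the median was -0.30, beside 4.71% of all genes lower. All called genes of the blood, choroid plexus and meningeal lists were lower on the cerebellum arrays, and the part of RNA from these tissues in the other differences was not tested. Neonatal cortex was also lower than the shared 15.5 dpc arrays in these lists, with medians of -1.12, -0.83 and -0.48. Cerebellum minus cortex had medians of 0.008, 0.002 and -0.17.

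Forebrain transcription factors were among the lowest genes in cerebellum. In the ventral telencephalon list 5 of 13 tested genes were lower and 0 higher, beside 4.71% of all genes lower. The median was -0.72. Dlx1, a homeobox gene of forebrain GABA neurons, was at 11.1, 7.47, 6.45 and 3.54 in cerebellum, at 475, 466, 720 and 312 in 15.5 dpc brain and at 988, 933, 778 and 724 in cortex. It was close to 0 on each cerebellum array. The differences were -3.15 ± 0.22 from 15.5 dpc brain (limma adjusted p = 0.0007744, kept in 8 fits) and -3.93 ± 0.22 from cortex (adjusted p = 0.0002135), and the added constant sets much of their size.

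Lhx6, a homeobox gene of interneurons from the medial ganglionic eminence, was at 90, 113, 91.2 and 55.8 in cerebellum, at 569, 691, 896 and 482 in 15.5 dpc brain and at 897, 961, 806 and 872 in cortex. The cerebellum arrays stood below all others. It differed by -2.33 ± 0.20 from 15.5 dpc brain (limma adjusted p = 0.001603, kept in 8 fits) and by -2.76 from cortex (adjusted p = 0.000521). Dlx2 differed from 15.5 dpc brain by -1.86 ± 0.26 (adjusted p = 0.007643) and Dlx5 by -1.87 ± 0.28 (adjusted p = 0.008923), both kept in 8 fits. Rarb, a retinoic acid receptor expressed in striatum, was lower, at -0.72 (adjusted p = 0.02737). All 5 called genes were also lower than in cortex. Other members of the list were not called, among them the homeobox genes Isl1 (-1.25, adjusted p = 0.2944) and Six3 (0.83), Drd2, a dopamine receptor (0.44), and the peptide genes Npy (-0.89), Penk (0.40), Tac1 (0.25) and Sst (-0.13). Either 4 or 5 genes of the list were called when 1 array was left out.

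In the list of cortical excitatory neurons 4 of 13 genes were lower and 0 higher, beside 4.71% of all genes lower. The median was -0.53. Neurod6, a helix-loop-helix factor of pyramidal neurons, was at 189, 215, 196 and 123 in cerebellum, at 1965, 826, 1375 and 1084 in 15.5 dpc brain and at 1203, 1396, 1183 and 1669 in cortex. Cerebellum was below both by a wide margin, and the other tissues overlapped. The difference from 15.5 dpc brain was -2.50 ± 0.27 (limma adjusted p = 0.003611, kept in 8 fits) and that from cortex was -2.61 (adjusted p = 0.003692).

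Mef2c, a transcription factor of maturing cortical neurons, was at 424, 344, 425 and 258 in cerebellum, at 1279, 1221, 1840 and 1249 in 15.5 dpc brain and at 3506, 3709, 3059 and 5089 in cortex. The 3 tissues did not overlap. It differed by -1.81 ± 0.22 from 15.5 dpc brain (limma adjusted p = 0.005279, kept in 8 fits) and by -3.23 from cortex (adjusted p = 0.0004352). Of 4 other Mef2c probe sets 1 was also called lower. Zbtb18, a repressor needed for cortical neuron differentiation, was at 1131, 1406, 1354 and 1444 against 3030, 2241, 3189 and 3319 in 15.5 dpc brain (-1.10 ± 0.15, adjusted p = 0.00695, kept in 8 fits) and differed from cortex by -1.75 (adjusted p = 0.001728). Lhx2, a selector gene of the cortical primordium, was lower, at -0.80 (adjusted p = 0.0376, kept in 0 fits). The layer factors Bcl11b (0.04) and Sox5 (0.21) did not pass. Each fit without 1 array called 3 genes of the list.

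Igfbpl1, a secreted protein of the IGF-binding family, was at 225, 305, 337 and 291 in cerebellum, at 1321, 1103, 1470 and 1631 in 15.5 dpc brain and at 869, 903, 724 and 768 in cortex. The 3 tissues formed separate ranges. It differed by -2.07 ± 0.14 from 15.5 dpc brain (limma adjusted p = 0.0007744, kept in 8 fits) and by -1.35 from cortex (adjusted p = 0.00428). Avp, which encodes the hypothalamic hormone vasopressin, was the 1 gene called of 9 tested in the diencephalic list, beside 4.71% of all genes lower. It was at -1.31 (adjusted p = 0.04416), and 0 of the 8 fits kept it.

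**Figure D3:**
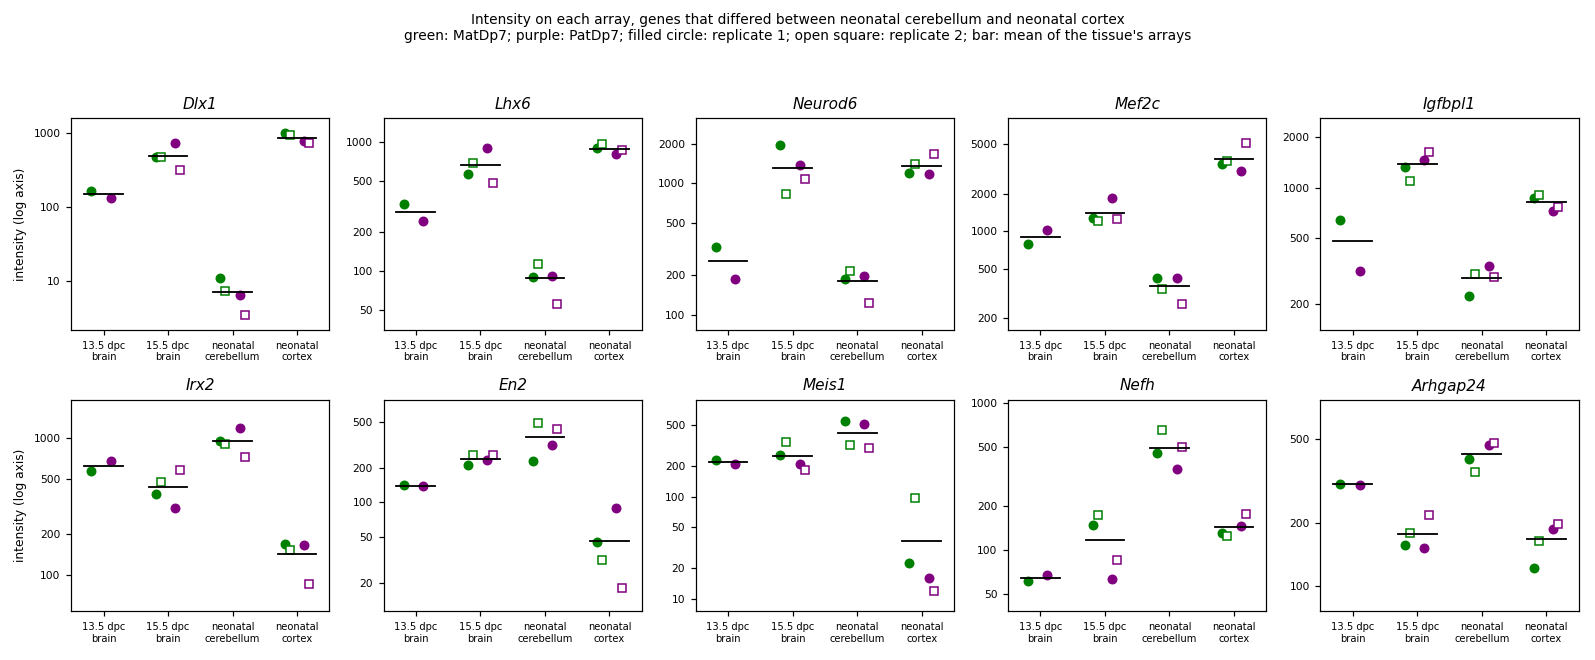
Intensity on a log axis for 10 genes that differed between neonatal cerebellum and neonatal cortex, in the 4 tissues of the study; colours and symbols separate MatDp7 (green) from PatDp7 (purple) and replicate 1 (filled circles) from replicate 2 (open squares), and bars are means. Dlx1, Lhx6, Neurod6, Mef2c and Igfbpl1 lie lower in cerebellum than in cortex and 15.5 dpc brain; Irx2, Nefh and Arhgap24 lie higher than in both, while En2 (0.49) and Meis1 (0.65) did not pass against 15.5 dpc brain.

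Hindbrain genes were higher in smaller number. Of 13 tested genes of midbrain and hindbrain patterning 2 were higher and 0 lower, beside 2.72% of all genes higher, with a median of 0.46. Irx2, an Iroquois homeobox gene, was at 952, 907, 1197 and 730 in cerebellum, at 389, 481, 306 and 588 in 15.5 dpc brain and at 169, 151, 164 and 86.1 in cortex. The 3 tissues did not overlap. The difference from 15.5 dpc brain was 1.03 ± 0.24 (limma adjusted p = 0.0376, kept in 1 of 8 fits) and that from cortex was 2.37 (adjusted p = 0.003692). Irx5 was at 739, 721, 1262 and 620 against 364, 370, 261 and 407 (1.11 ± 0.26, adjusted p = 0.03687, kept in 1 fit) and exceeded cortex by 2.02 (adjusted p = 0.01109). Irx1 (0.23) and Irx3 (0.36) did not pass against 15.5 dpc brain. Cerebellum minus cortex, with a list median of 1.59, passed for 6 of these 13 genes, beside 0.368% of all probe sets.

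Of the 1002 called probe sets, 36 also differed from neonatal cortex in the same direction, 11 higher and 25 lower, and 0 in the opposite direction. Against cortex 50 of all 13576 probe sets passed (0.368%). Both comparisons use the same cerebellum arrays, which favours equal directions, so the absence of opposite ones is not separate evidence. Between 15 and 26 did so when 1 array was left out. The cerebellum arrays gave 15 without MatDp7 replicate 1, 18 without MatDp7 replicate 2, 15 without PatDp7 replicate 1 and 26 without PatDp7 replicate 2. The 15.5 dpc arrays gave 15 without MatDp7 replicate 1, 19 without MatDp7 replicate 2, 16 without PatDp7 replicate 1 and 17 without PatDp7 replicate 2.

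Besides the regional factors, the higher group held Nefh, Slc17a6, Lrrc3b and Arhgap24. Lrrc3b, a leucine-rich repeat protein, was at 843, 875, 1051 and 964 in cerebellum and at 297, 384, 318 and 347 in 15.5 dpc brain. The cerebellum arrays were close together and above all others. The difference was 1.34 ± 0.15 (limma adjusted p = 0.00411, kept in 8 fits), with 1.01 from cortex (adjusted p = 0.02888). Arhgap24 was at 402, 348, 466 and 479 against 157, 179, 152 and 218 (1.06 ± 0.15, adjusted p = 0.008416, kept in 8 fits) and exceeded cortex by 1.12 (adjusted p = 0.01577).

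Some genes of synapses and excitability were higher in cerebellum, and most members of these lists did not pass. Neonatal cortex was also above 15.5 dpc brain, although both comparisons share the 15.5 dpc arrays. Its medians were 0.545 for synaptic vesicle, 0.62 for GABA and glycine, 0.75 for channel and 0.93 for glutamate genes. Cerebellum minus cortex had medians of 0.19, 0.21, 0.06 and -0.14 in that order. In the synaptic vesicle and release list 4 of 24 tested genes were higher and 0 lower, where 2.72% of all genes were called higher, with a median of 0.72, and all 24 differences were positive. Slc17a6, a vesicular glutamate transporter of brainstem and cerebellar nuclear neurons, was at 3522, 2446, 3107 and 3098 in cerebellum, at 891, 1115, 730 and 887 in 15.5 dpc brain and at 789, 971, 1097 and 1125 in cortex. Cerebellum alone was high, and the other tissues overlapped. The difference was 1.70 ± 0.17 from 15.5 dpc brain (limma adjusted p = 0.00275, kept in 8 fits) and 1.56 from cortex (adjusted p = 0.00428), and a second probe set was called in the same direction.

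Syn2, a synapsin of the vesicle surface, was at 3059, 1436, 2481 and 1953 in cerebellum and at 433, 537, 496 and 449 in 15.5 dpc brain. All cerebellum arrays were higher, with replicate 1 above replicate 2 in both duplications. It differed by 2.06 ± 0.28 (limma adjusted p = 0.006925, kept in 8 fits). Sv2a, a vesicle glycoprotein, was at 4877, 2013, 5500 and 1980 against 690, 968, 842 and 878 (1.88 ± 0.39, adjusted p = 0.02619, kept in 2 fits). Napb, an adaptor that recycles SNARE proteins, was at 4977, 2152, 6055 and 2286 against 950, 1068, 1099 and 988 (1.72 ± 0.37, adjusted p = 0.02856, kept in 2 fits), and a second Napb probe set, at 0.86, was not called. For both genes the replicate 1 arrays read more than the replicate 2 arrays, and every cerebellum array was above the embryo range.

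The fusion genes Stx1a (0.67, limma adjusted p = 0.05337), Syt1 (0.71), Snap25 (0.79) and Vamp2 (0.79) did not pass, nor did Syp (0.58) and Syn1 (0.44). The list's median was 0.41 from the replicate 1 arrays alone and 0.98 from the replicate 2 arrays alone. Summed intensity was 45600 to 57690 in cerebellum and 22850 to 34060 in 15.5 dpc brain. Without 15.5 dpc PatDp7 replicate 2 the list had 2 calls.

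Genes of inhibitory signalling were higher in part. Of 10 tested genes of GABA and glycine receptors and their partners 4 were higher and 0 lower, beside 2.72% of all genes higher. The median was 0.80. Slc12a5, the chloride exporter that makes GABA inhibitory in mature neurons, was at 4508, 5102, 4431 and 5310 in cerebellum and at 910, 2359, 1114 and 1012 in 15.5 dpc brain. Cerebellum was high on all arrays, and among embryo arrays MatDp7 replicate 2 stood above the rest. The difference was 1.90 ± 0.28 (limma adjusted p = 0.008945, kept in 7 of 8 fits). Cortex was at 1863, 2751, 2304 and 3273, and cerebellum minus cortex (0.94, adjusted p = 0.3935) did not pass. With a term for the replicate number of neonatal arrays its limma adjusted p was 0.04444. Glrb, the anchoring subunit of the glycine receptor, was at 307, 297, 384 and 506 against 166, 101, 157 and 77.5 (1.27 ± 0.25, adjusted p = 0.02361, kept in 1 fit).

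The receptor subunits Gabrb1 (0.97, limma adjusted p = 0.03396, kept in 2 fits) and Gabra3 (0.88, adjusted p = 0.04482, kept in 0 fits) were also called. Gabrb2 (1.65, adjusted p = 0.1126), Gabra2 (0.61) and the chloride importer Slc12a2 (0.13) did not pass. Summed intensity of the list was 13910 to 16450 in cerebellum and 6843 to 9138 in 15.5 dpc brain. Among fits without 1 array the count ran from 0, without 15.5 dpc PatDp7 replicate 2, to 2.

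Among 15 voltage-gated channel genes 3 were higher and 0 lower, beside 2.72% of all genes higher, with a median of 0.76. Kcnd2, a subunit of the A-type potassium channel, was at 1046, 1376, 976 and 1511 in cerebellum and at 539, 736, 480 and 396 in 15.5 dpc brain. The groups did not overlap, and the difference was 1.13 ± 0.21 (limma adjusted p = 0.01984, kept in 4 of 8 fits). Scn2a, a sodium channel of axons, was at 5552, 845, 8237 and 1226 against 235, 153, 323 and 272, a difference of 3.21 ± 0.76 (adjusted p = 0.03875, kept in 2 fits). Kcnma1, the large-conductance calcium-activated potassium channel, was at 2327, 850, 2159 and 769 against 302, 202, 319 and 329 (2.06 ± 0.50, adjusted p = 0.04256, kept in 2 fits). For Scn2a and Kcnma1 the replicate 1 arrays of cerebellum read far above the replicate 2 arrays, all of which still exceeded 15.5 dpc brain. Cerebellum minus cortex did not pass for Scn2a (0.41) or Kcnma1 (-0.04), with or without a term for the replicate number of neonatal arrays. Cacng2 (2.86, adjusted p = 0.0572), which guides AMPA receptors, and Kcnc1 (1.25, adjusted p = 0.07675) did not pass. The count was 0 without 15.5 dpc PatDp7 replicate 2.

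Of 15 glutamate receptor and scaffold genes 2 were higher and 0 lower, beside 2.72% of all genes higher, with a median of 0.67. Gria4, an AMPA receptor subunit, was at 317, 317, 303 and 333 in cerebellum and at 164, 183, 192 and 180 in 15.5 dpc brain. Arrays within each tissue were close and the tissues apart. The difference was 0.67 ± 0.16 (limma adjusted p = 0.03987, kept in 0 of 8 fits). Gria3 was at 355, 276, 439 and 365 against 165, 212, 208 and 205 (0.71 ± 0.16, adjusted p = 0.03381, kept in 1 fit). Gria2 (1.89), Gria1 (1.11) and the scaffold gene Dlg4 (-0.08) did not pass, and neither did Camk2g (2.62, adjusted p = 0.05185).

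The cytoskeleton of mature neurons gave 3 higher genes of 13 and 0 lower, beside 2.72% of all genes higher. The median was 0.65. Nefh, the heavy neurofilament subunit of large axons, was at 461, 660, 355 and 500 in cerebellum, at 148, 173, 63.3 and 85.6 in 15.5 dpc brain and at 131, 124, 146 and 175 in cortex. Only the cerebellum arrays were high. It differed by 1.71 ± 0.18 from 15.5 dpc brain (limma adjusted p = 0.003309, kept in 8 fits) and by 1.46 from cortex (adjusted p = 0.008102). The light subunit Nefl was higher by 0.95 and the microtubule stabiliser Map6 by 0.99, each kept in 1 fit, and the medium subunit Nefm (0.54, adjusted p = 0.1895) did not pass. Between 1 gene (without 15.5 dpc PatDp7 replicate 2) and 2 genes of the list were called without 1 array. Of 28 genes of young neurons and axon growth limma called 0, with 1 at an unadjusted p under 0.05 and a median of 0.07. In that list Dcx was at -0.08, Tubb3 at 0.13, Gap43 at 0.32 and Stmn1 at -0.28.

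Other higher genes with large values were found outside these lists. Cntn1, an axonal adhesion molecule, was at 18973, 4875, 21042 and 6126 in cerebellum and at 1396, 659, 1308 and 958 in 15.5 dpc brain, a difference of 3.27 ± 0.62 (limma adjusted p = 0.01979, kept in 2 of 8 fits). The cerebellum replicate 1 arrays were several times its replicate 2 arrays. Camk2d, a calcium and calmodulin-dependent kinase, was at 1259, 700, 1286 and 762 against 206, 205, 206 and 164, with no overlap (2.05 ± 0.27, adjusted p = 0.006233, kept in 8 fits). Pla2g7, the hydrolase of platelet-activating factor, was at 1252, 1454, 1510 and 1180 against 214, 281, 232 and 128 (2.43 ± 0.32, adjusted p = 0.006711, kept in 8 fits). Cortex read 317, 710, 224 and 602 for Pla2g7, and cerebellum minus cortex (1.55, adjusted p = 0.1242) did not pass. With a term for the replicate number of neonatal arrays its limma adjusted p was 0.004504.

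Crim1, a membrane protein that binds BMP growth factors, was at 1735, 726, 735 and 567 in cerebellum and at 109, 16.6, 318 and 115 in 15.5 dpc brain, a difference of 2.49 ± 0.40 (limma adjusted p = 0.01132, kept in 7 fits). No cerebellum array came down to the embryo range. The exchanger gene Slc24a3 was higher by 2.28 (adjusted p = 0.02103, kept in 3 fits) and Ncald, a neuronal calcium sensor, by 2.52 (adjusted p = 0.04354, kept in 2 fits), while a second Ncald probe set, at 0.66, was not called.

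Glial genes were higher in part. Neonatal cortex minus 15.5 dpc brain had medians of 0.27 for the astrocyte list and 0.30 for the oligodendrocyte list. Of 19 astrocyte and Bergmann glia genes 4 were higher and 0 lower, beside 2.72% of all genes higher, with a median of 0.63. Slc4a4, a sodium bicarbonate cotransporter of astrocytes, was at 798, 786, 772 and 738 in cerebellum and at 258, 353, 365 and 280 in 15.5 dpc brain. The cerebellum arrays agreed closely and lay above the embryo arrays. The difference was 1.19 ± 0.15 (limma adjusted p = 0.005246, kept in 8 fits). Atp1b2, the glial beta subunit of the sodium pump, was at 2695, 2549, 2685 and 3044 against 1115, 1620, 1123 and 1190 (1.10 ± 0.16, adjusted p = 0.008453, kept in 8 fits). Both genes had a second probe set called in the same direction.

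Aqp4, the water channel of astrocyte end-feet, was at 3443, 670, 2933 and 1121 in cerebellum and at 167, 78.5, 123 and 94.2 in 15.5 dpc brain. Replicate 1 arrays were the higher in both tissues, and the tissues did not overlap. The difference was 3.39 ± 0.53 (limma adjusted p = 0.01012, kept in 7 fits). Ntsr2, a neurotensin receptor of astrocytes, was higher by 0.97 (adjusted p = 0.02826, kept in 2 fits). Apoe (1.47, adjusted p = 0.07845), Aldh1l1 (0.64), Gfap (0.75) and Aldoc (0.79) did not pass, and the gap junction gene Gja1 was at -0.49. The list's summed intensity was 25980 to 47050 in cerebellum and 20710 to 22990 in 15.5 dpc brain, and its count was 2 without 15.5 dpc PatDp7 replicate 2.

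Of 12 oligodendrocyte genes 2 were higher and 1 lower, beside 2.72% and 4.71% of all genes, with a median of 0.39. Omg, a surface glycoprotein of oligodendrocytes and neurons, was at 976, 700, 779 and 989 in cerebellum, at 23.7, 46.6, 23.2 and 35 in 15.5 dpc brain and at 107, 296, 127 and 453 in cortex. Embryo arrays were near the bottom of the scale and cerebellum arrays far above. The difference was 3.43 ± 0.35 (limma adjusted p = 0.003334, kept in 8 fits), and the added constant sets part of its size because the embryo mean lies under it. Olig1, a factor of oligodendrocyte precursors, was at 2632, 2089, 2003 and 3127 against 1130, 1408, 970 and 695 (1.21 ± 0.23, adjusted p = 0.01984, kept in 4 fits), with no overlap. The tight junction gene Cldn11, which meningeal cells also express, was lower, at -1.17 (adjusted p = 0.0463, kept in 2 fits). The myelin genes Mbp (0.08), Mag (0.12) and Cnp (0.63) did not pass.

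A minority of the tested genes of cerebellar neurons were called. Of 12 Purkinje cell genes 2 were higher and 1 lower, beside 2.72% and 4.71% of all genes, with a median of 0.66. Summed intensities were 11480 to 14140 in cerebellum and 6911 to 8241 in 15.5 dpc brain. Car8, a carbonic anhydrase-related protein of Purkinje cells, was at 301, 573, 890 and 807 in cerebellum and at 209, 83.8, 173 and 104 in 15.5 dpc brain. MatDp7 replicate 1 was the lowest cerebellum array and still lay above the embryo range. The difference was 1.79 ± 0.28 (limma adjusted p = 0.009925, kept in 7 fits). Gad2, an enzyme of GABA synthesis, was at 604, 433, 629 and 678 against 273, 239, 339 and 256, with no overlap (0.95 ± 0.16, adjusted p = 0.01191, kept in 6 fits). Homer3, a postsynaptic scaffold, was lower, at -0.60 (adjusted p = 0.04696, kept in 0 fits).

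Rora, an orphan nuclear receptor needed for Purkinje cell maturation, was at 1908, 694, 2039 and 557 in cerebellum and at 262, 341, 221 and 306 in 15.5 dpc brain. Every cerebellum array was higher, but the replicate numbers were far apart, and the difference of 1.82 ± 0.52 did not pass (limma adjusted p = 0.06759). From the replicate 1 arrays alone the Rora difference was 2.61, and from the replicate 2 arrays alone it was 1.02. Calb1 and Pcp4, both at 0.21, did not pass. Of 14 granule lineage genes Insm1, a zinc finger factor of newly born neurons and dividing precursors, was lower, at -1.22 ± 0.25 (limma adjusted p = 0.02513, kept in 2 fits). None were higher and the median was 0.32, beside 4.71% of all genes lower. Cbln1, the synaptic organiser of granule cells (0.63, adjusted p = 0.05813), the netrin receptor Unc5c (0.66), Atoh1, the factor that specifies the lineage (0.29), and Zic1 (0.48) did not pass. The granule list's median was 0.52 from the replicate 1 arrays and -0.12 from the replicate 2 arrays.

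Hedgehog signalling expands granule precursors. Of 10 tested genes of that pathway Ccnd1, its cyclin target, was lower, at -0.53 (limma adjusted p = 0.04414, kept in 0 fits). None were higher and the median was -0.30, beside 4.71% of all genes lower. With the median over the gene's probe sets Ccnd1 was at 0.05, so its direction rests on 1 probe set. Gli1 (-0.05), Ptch1 (0.44) and Mycn (-0.37) did not pass.

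Genes that respond to hormones and activity were called singly. Klf9, a factor induced by thyroid hormone and glucocorticoids, was at 2429, 677, 786 and 592 in cerebellum and at 197, 17.6, 241 and 30.6 in 15.5 dpc brain. Cerebellum MatDp7 replicate 1 was far above the other arrays, and replicate 2 was low at 15.5 dpc in both duplications. The difference was 2.80 ± 0.61 (limma adjusted p = 0.03123, kept in 2 fits). Klf9 was the 1 call of 8 thyroid response genes, beside 2.72% of all genes higher. Cerebellum minus cortex was -0.17 for Klf9 and did not pass, with or without a term for the replicate number of neonatal arrays. Mt1, metallothionein, was at 2139, 3509, 1660 and 2181 against 1103, 575, 741 and 914, with no overlap (1.44 ± 0.28, adjusted p = 0.0217, kept in 3 fits). Cdkn1a, an inhibitor of the cell cycle, was higher by 0.88 (adjusted p = 0.02522, kept in 2 fits), and a second Cdkn1a probe set, at 1.19, was not called (adjusted p = 0.08954). These were the 2 calls of 12 glucocorticoid response genes, whose median was 0.34, beside 2.72% of all genes higher. Fkbp5 (0.15) and Tsc22d3 (-0.09), direct receptor targets, did not pass.

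Fos, an immediate early gene, was at 812, 332, 218 and 205 in cerebellum and at 96.3, 90.2, 87.1 and 96 in 15.5 dpc brain, a difference of 1.43 ± 0.32 (limma adjusted p = 0.03151, kept in 1 fit). It was the 1 call of 10 immediate early genes, beside 2.72% of all genes higher, and MatDp7 replicate 1 was its highest array. Cerebellum minus cortex was -0.22 for Fos and did not pass, with or without a term for the replicate number of neonatal arrays. Slc2a3, the neuronal glucose transporter, was higher by 0.87 (adjusted p = 0.0376, kept in 0 fits). It was the 1 call of 16 hypoxia and glycolysis genes, near the 2.72% of all genes called higher. Of 24 oxidative phosphorylation genes limma called 0, with 0 at an unadjusted p under 0.05 and a median of -0.04. Of 15 cholesterol synthesis genes it called 0, with 1 at an unadjusted p under 0.05 and a median of 0.01.

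**Figure D4:**
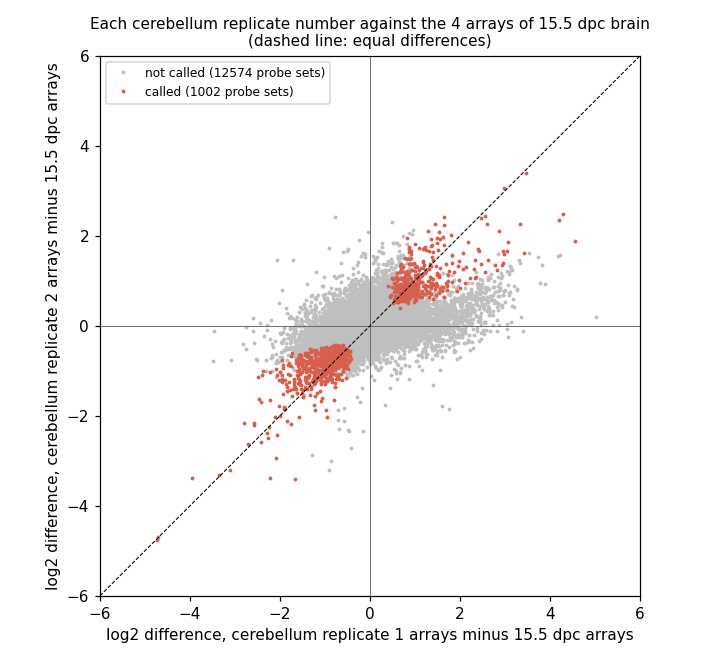
Log2 difference of each tested probe set between cerebellum and the 4 arrays of 15.5 dpc brain, with the cerebellum replicate 1 arrays on the horizontal axis and the replicate 2 arrays on the vertical axis; red points are the 1002 called probe sets and the dashed line marks equal differences. Called points lie in the quadrants of equal sign because a call requires it, and the uncalled cloud is wider along the replicate 1 axis.

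Cerebellum replicates set the size of many differences. Over all tested probe sets 68.4% had the same direction with replicate 1 alone and replicate 2 alone, and all 1002 that passed the adjusted p did. The adjusted p comes from both replicates, which favours equal directions, so this is not separate evidence. The 2 replicate numbers gave differences more than 1 apart on the log2 scale for 37 called probe sets (3.69%) and for 1636 of those tested (12.1%). The median absolute log2 difference over tested probe sets was 0.40 with replicate 1 arrays alone as cerebellum. With replicate 2 arrays alone it was 0.26. Each neonatal group then held 1 array, so the spread between cerebellum samples could not be measured. Cerebellum and 15.5 dpc arrays did not overlap for 988 of the 1002 calls and for 3430 probe sets of all tested.

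Calls average over both duplications, which favours equal signs in MatDp7 and PatDp7 mice. Of the 1002, 1001 had the same sign in both, and the share over all tested probe sets was not counted. Whether the cerebellum difference varied with the duplication was tested as an interaction in limma, which called 0 probe sets. An unadjusted p under 0.05 was found for 100.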

How the data were processed

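Total RNA was hybridised as biotin-labelled cRNA to Affymetrix GeneChip 430A arrays, per the labels' protocols. The deposited values are linear intensity, and the submitters' processing notes name MAS5 without a version; 2% trimmed means of 500.13 to 500.15 show that arrays were already scaled. Of 22690 probe sets, 64 were controls, and 20380 were annotated to 1 gene, 691 to several and 1555 to none. A constant of 52.0273, the 20th percentile of all values, was added before taking log2. Only probe sets whose mean log2 reached the 40th percentile (7.709) were tested. With limma 3.58.1 in R 4.3.3, 8 group means were fitted over all 14 arrays with an intensity trend (6 residual and 3.15 prior degrees of freedom). A group's precision is limited by its number of arrays. For each gene the brightest tested probe set was used. Named were the 12 largest calls in each direction, up to 4 members per list by smallest p, and the 6 largest calls in each direction that also passed against cortex; other list members are given by value. The 31 lists and the groups were chosen with earlier results of these data known. Scripts were tested on simulated data. Alternatives varied the constant, filter, scaling, variance trend, replicate block, probe set and arrays. Promoters were matched by symbol to RefSeq GRCm38.p6. Figures used Python 3.11.15 and matplotlib 3.10.9.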

Additional observations from a re-analysis of the deposited data

Results flagged for a closer look

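In the groups of 4 arrays, cerebellum and 15.5 dpc, of the 84 named genes that were called, 5 of 168 had 1 array far from the other 3 by Dixon's criterion (2.98%, where chance gives about 1 in 20). Camk2d had its lowest 15.5 dpc intensity, 164, on PatDp7 replicate 2, against 205 to 206 on the others. Gmnn had its lowest 15.5 dpc intensity, 232, on MatDp7 replicate 2, against 302 to 318. Gria3 had its lowest 15.5 dpc intensity, 165, on MatDp7 replicate 1, against 205 to 212. Map6 had its highest cerebellum intensity, 363, on MatDp7 replicate 2, against 277 to 288. Mef2c had its highest 15.5 dpc intensity, 1840, on PatDp7 replicate 1, against 1221 to 1279.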

How the results depend on the processing

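The number of called probe sets was 1002 and ranged from 123 to 894 when 1 array was left out. It was 1649 when the 8 arrays were fitted as 2 groups with a duplication term, 4500 with the replicate block for neonatal arrays, 2695 with a replicate block in all groups, and 5046 and 1218 with cerebellum replicate 1 or 2 arrays alone. It was between 714 and 1029 under the other constants, filters and scalings, without the variance trend, with 4 groups of the 8 arrays, and with the replicate number as a random block. The replicate block of neonatal arrays also held all 1002 calls. Same-numbered arrays correlated at 0.816 between the cerebellum groups and at -0.0759 to 0.211 between cerebellum and 15.5 dpc groups, so the arrays of these tissues were not treated as paired. Between cortex and cerebellum groups the correlations were 0.71 to 0.775. The neonatal replicate block fits this sharing, and the main fit leaves it in the spread behind its p-values. Xist still split by replicate number in cerebellum and 15.5 dpc brain, at 198.4 to 231.6 on replicate 1 arrays and 2882 to 5323 on replicate 2 arrays. With the neonatal replicate block 7 of 12 Purkinje cell genes were called higher and 1 lower, Rora among the higher at an adjusted p of 8.886e-06. That fit called many more probe sets of every kind, 1939 higher and 2561 lower of all 13576 tested. The count that varied with the duplication was 0 and became 2 with the neonatal replicate block, 2 with replicate 1 arrays alone and 2 with replicate 2 arrays alone, and 0 to 1 without 1 array. The count that also differed from cortex was 36 and became 23 with a filter at the 60th percentile, 273 with the neonatal replicate block, 75 with a replicate block in all groups, 123 with the random replicate block, 83 with replicate 1 arrays alone and 15 to 26 without 1 array. For these changes the cause was not tested, and some of the settings also held fewer arrays or probe sets. With replicate 1 or 2 arrays alone each neonatal group held 1 array, so those counts carry no spread between cerebellum samples. Of 3059 values of 135 named genes under alternatives, 2564 kept direction and side of the threshold, 360 lost the call, 134 gained one and 1 reversed, Ccnd1 at 0.05455 with the median of its probe sets. No probe set count was made for the median of a gene's probe sets, nor the duplication or cortex counts for the fit of 2 groups, nor the cortex count for the 8 arrays. Low intensities limit the size of differences near the added constant.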

Other observations

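Some probe sets outside the rule for named genes separated cerebellum from both other tissues, and they were chosen after their values were seen. Sla, an adaptor of receptor signalling, was at 147, 234, 134 and 188 in cerebellum, at 496, 388, 619 and 376 in 15.5 dpc brain and at 759, 856, 618 and 1162 in cortex. Its log2 difference was -1.19 from 15.5 dpc brain (limma adjusted p = 0.02515) and -1.97 from cortex (adjusted p = 0.008967), and a second Sla probe set was called likewise. Efnb2, an ephrin ligand of axon guidance and vessels, differed by -1.45 from 15.5 dpc brain and by -1.48 from cortex. Nfib, a nuclear factor I gene expressed in developing forebrain and cerebellum, was at 764, 1096, 1284 and 1139 in cerebellum and at 1949, 1802, 1798 and 2217 in 15.5 dpc brain, a difference of -0.85 (adjusted p = 0.0204), with -1.12 from cortex. Frmd4b differed by -1.13 and -0.81, Tmem131l by -1.23 and -1.05, and Rasl11b by -0.78 and -1.16, from 15.5 dpc brain and cortex in that order.

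In the higher direction, a probe set of Ebf3, a helix-loop-helix factor of the Ebf family, was at 1614, 1447, 1976 and 1306 in cerebellum, at 688, 714, 478 and 567 in 15.5 dpc brain and at 99, 110, 190 and 23.8 in cortex. It differed by 1.30 from 15.5 dpc brain (limma adjusted p = 0.04256) and by 3.48 from cortex (adjusted p = 0.002278). Probe sets of Timp4, an inhibitor of matrix metalloproteinases (1.02 and 1.03), Rcan2, a regulator of calcineurin (0.78 and 1.03), and Mab21l1 (0.76 and 2.48) were also higher than in both tissues. None of these 4 is the brightest probe set of its gene, and the brighter probe set of Mab21l1 did not pass against 15.5 dpc brain (0.76, adjusted p = 0.1136). The lowest of 4 such probe sets without a single annotated gene was at 3.87, 70, 2.69 and 3.07 in cerebellum and at 1072, 665, 1039 and 543 in 15.5 dpc brain (-3.66, adjusted p = 0.0009693).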
